A study of Mus musculus with 800 samples.

Results

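A set of 8 genes for the uptake, storage, synthesis, breakdown and sensing of serotonin was followed in single cells of the embryonic mouse retina. It was chosen by name, with earlier results of these data known. The set holds the plasma membrane serotonin transporter Slc6a4 (SERT), the vesicular monoamine transporter Slc18a2 (VMAT2), the monoamine oxidases Maoa and Maob, the aromatic amino acid decarboxylase Ddc, the tryptophan hydroxylases Tph1 and Tph2, and the serotonin receptor Htr1b. All 8 were found among the 49492 gene symbols of the count table.

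Serotonin is made from tryptophan by a tryptophan hydroxylase and then by Ddc. Slc6a4 carries serotonin from outside into a cell, Slc18a2 loads it into vesicles, and the oxidases break it down. In the developing mouse visual system, some retinal ganglion cells (RGCs, the neurons that send the optic nerve to the brain) are known to take up serotonin for a time, although they use glutamate as their transmitter. Htr1b is a receptor coupled to inhibitory G proteins and is known from the terminals of retinal axons.

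The 2 groups were 400 Tomato+ cells and 400 Tomato- cells, all from C57BL/6 retinas at stage E15.5. The design text gives the embryos of both groups as Sert-Cre, a line in which Cre recombinase follows Slc6a4, and Tomato is a red fluorescent protein used as a Cre reporter. The construction of the Sert-Cre allele, whether it alters Slc6a4 itself, and the reporter line are not given in the sources used here. A Cre reporter stays on after the driver gene falls silent, and the labels do not describe the sorting gate. Per the labels, retinas were pooled, dissociated with papain and sorted by flow cytometry. The labels tie no cell to an animal. Each group is therefore 1 sample, no p-value or standard error was made, and every interval below covers counting error only. Cell titles carry a number, 1 to 10 for Tomato+ and 11 to 20 for Tomato- cells, with 40 cells each; what the number marks is not stated, and the values by title number show the spread within a group and not between animals. Titles also carry 1 of 40 rows, each shared by 10 Tomato+ and 10 Tomato- cells, and what the row marks is not stated either.

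After cells with more than 20% of their counts in mitochondrial genes were left out (73 Tomato+ and 38 Tomato- cells), 689 cells remained. The median total of a kept cell was 271789 counts in the Tomato+ group, against 243410 counts in the Tomato- group. Levels are CPM, the counts of a gene per 1e6 counts when all cells of a group are summed, and a gene is called detected in a cell at 5 or more counts. Cells were clustered without the 8 genes and their pathway lists, and clusters were named from marker lists. RGC-like clusters held 320 kept Tomato+ cells (97.9%) and 32.04% of the kept Tomato- cells. The Tomato- group also held progenitor-like cells (32.6%), 56 neurogenic precursor-like cells (15.47%) and 72 cells (19.9%) of a cluster that stayed unnamed, since markers of several classes were raised in it. The summed level of the 12 RGC markers was 18070 CPM in Tomato+ cells, against 8093 CPM in Tomato- cells, and within the RGC-like class it was 18381 CPM in Tomato+ cells, against 17527 CPM in Tomato- cells. Markers of other classes differed within the RGC-like class: the 12 progenitor markers summed to 773.7 CPM in Tomato+ cells, against 1090 CPM in Tomato- cells, the 12 neurogenic precursor markers to 345.9 CPM in Tomato+ cells, against 638.6 CPM in Tomato- cells, and the 8 photoreceptor markers to 22.1 CPM in Tomato+ cells, against 95.1 CPM in Tomato- cells, and their part in the results was not tested. Differences over all kept cells therefore set a nearly pure RGC-like group against a mixed one, and the main genes are also given within the RGC-like class.

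Of the 8 genes, Slc6a4, Slc18a2, Maoa and Htr1b averaged at least 10 CPM over the 2 groups and were compared by a 2-fold limit. The bases before their start sites are shown as the sequences that stand next to the 4 measured transcripts. Each is the run of 250 bases before the RefSeq start, on the gene's own strand, from RefSeq on GRCm38.p6. They lie at chr11:76998347-76998596 on the plus strand for Slc6a4, chr19:59260628-59260877 on the plus strand for Slc18a2, chrX:16619448-16619697 on the plus strand for Maoa and chr9:81633833-81634082 on the minus strand for Htr1b. Capitals mark GC boxes (GGGCGG, or CCGCCC on the other strand) in the sequences of Slc6a4, Slc18a2 and Maoa, and CCAAT boxes (CCAAT, here ATTGG on the other strand) in that of Htr1b.
Slc6a4: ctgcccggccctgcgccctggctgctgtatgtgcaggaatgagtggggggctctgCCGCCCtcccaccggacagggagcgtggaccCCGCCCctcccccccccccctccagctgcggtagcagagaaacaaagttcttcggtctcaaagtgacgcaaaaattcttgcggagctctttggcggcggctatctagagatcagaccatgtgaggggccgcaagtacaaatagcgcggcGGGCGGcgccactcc
Slc18a2: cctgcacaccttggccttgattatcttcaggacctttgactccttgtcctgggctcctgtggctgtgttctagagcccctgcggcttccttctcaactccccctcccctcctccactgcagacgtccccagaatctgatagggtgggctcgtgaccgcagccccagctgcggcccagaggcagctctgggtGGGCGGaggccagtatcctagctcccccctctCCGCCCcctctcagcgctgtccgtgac
Maoa: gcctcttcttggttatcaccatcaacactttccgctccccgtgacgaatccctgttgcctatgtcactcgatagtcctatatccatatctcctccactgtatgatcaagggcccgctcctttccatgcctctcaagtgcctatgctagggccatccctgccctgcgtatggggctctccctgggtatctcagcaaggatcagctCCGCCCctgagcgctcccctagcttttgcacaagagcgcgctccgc
Htr1b: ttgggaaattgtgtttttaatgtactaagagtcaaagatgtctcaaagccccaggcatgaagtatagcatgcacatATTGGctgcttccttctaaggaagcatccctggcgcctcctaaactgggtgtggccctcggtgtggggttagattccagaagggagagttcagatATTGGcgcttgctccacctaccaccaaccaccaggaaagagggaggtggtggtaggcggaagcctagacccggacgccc

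The Slc6a4 window held 3 GC boxes, at -195, -164 and -15 from the start, and 18 CpG dinucleotides. The Slc18a2 window held 2 GC boxes, at -59 and -27, and 9 CpG. Maoa had 1 GC box at -46, and Htr1b had none but 2 CCAAT boxes at -174 and -79. G and C made up 64.8% of the Slc6a4 window, 64% of the Slc18a2 window, 56.8% of the Maoa window and 52.4% of the Htr1b window, against a median of 52.4% over 32851 RefSeq windows of the same length. A GC box was present in 32.7% and a CCAAT box in 33.8% of those windows. Also searched on both strands were TATAAA (in 12.4% of all windows), the homeodomain core TAATTA (4.84%), the Zic core CAGCAGG (8.44%) and the T-box sequence AGGTGTGA (1.12%), and none of them was present in the 4 windows. No 2 matches overlapped.

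Slc6a4, on chromosome 11 (76998603 to 77032340, GRCm38), separated the groups most widely. Its level by title number ran from 53.3 to 154.3 CPM in Tomato+ cells, with a median of 99.1 CPM, and from 0 to 2.10 CPM in Tomato- cells, with a median of 0.430 CPM. Every Tomato+ title number was thus above every Tomato- title number. The pooled level was 103.8 CPM (95% Poisson interval 101.6 to 105.9) in Tomato+ cells, against 0.546 CPM (0.406 to 0.717) in Tomato- cells. The log2 ratio of the group levels, with 10 CPM added to each as a pseudocount and Tomato+ on top, was 3.43, beside an SD of 0.26 between title numbers. Slc6a4 was detected in 120 Tomato+ cells (36.7%, exact interval 31.5% to 42.2%) and in 1 Tomato- cell (0.276%). With every cell thinned to 94783 counts, at least 1 count was present in 46.6% of Tomato+ cells and 2.45% of Tomato- cells. A majority of Tomato+ cells therefore stayed below the detection limit for the driver gene, and 50.8% of all Tomato+ cells had 1 or more counts of it.

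The few Slc6a4 counts of Tomato- cells were spread over all 4 classes. At least 1 count was present in 6.90% of RGC-like, 5.56% of unnamed, 7.14% of neurogenic precursor-like and 4.24% of progenitor-like Tomato- cells, with median totals of 332800, 217561, 225166 and 230318 counts. Progenitor-like cells stand here as a class that should lack the transporter. In thinned cells the shares were 3.74% of RGC-like and 2.78% of progenitor-like Tomato- cells, and the summed levels were 0.730 CPM in RGC-like and 0.390 CPM in progenitor-like ones. The 1 Tomato- cell at the detection limit had 18 counts and lay in an RGC-like cluster. It gave 66.7% of the Slc6a4 counts of the RGC-like Tomato- cells. The summed levels of the Tomato- classes are therefore not ranked. Within the RGC-like class the level was 105.8 CPM in Tomato+ cells, against 0.730 CPM in Tomato- cells, a log2 ratio of 3.43.

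Haemoglobin transcripts moved with the same split. The 7 erythroid markers summed to 1695 CPM in Tomato+ cells, against 4.01 CPM in Tomato- cells, and within Tomato+ to 2442 CPM in cells with Slc6a4 and 1312 CPM in cells at 0 counts of it. In all, 7 Tomato+ but 0 Tomato- cells held at least 100 counts of Hbb-y. Without those 7 cells the log2 ratio of Slc6a4 was 3.44 and that of Slc18a2 was 1.19. The 7 platelet markers, which mark the blood cells best known for this transporter, summed to 52.2 CPM in Tomato+ cells, against 71.97 CPM in Tomato- cells. Gp1bb gave 3427 of the 4503 Tomato+ counts, and Pf4 3541 and Gp1bb 2907 of the 6728 Tomato- counts. Within Tomato+ the sum was 61.7 CPM in cells with Slc6a4 and 44.9 CPM in cells at 0 counts of it. Ppbp, Gp9 and Treml1 were at 0 in Tomato- cells and in Tomato+ cells at 0 counts of Slc6a4. Each of the 3 reached 5 counts in 1 Tomato+ cell. The part of platelets in the results was not tested.

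Slc18a2 lies on chromosome 19 (59260896 to 59296012). Its level by title number ran from 232.9 to 426.5 CPM in Tomato+ cells, with a median of 313.4 CPM, and from 57.7 to 210.5 CPM in Tomato- cells, with a median of 125.6 CPM. The groups did not overlap. Pooled levels were 314.6 CPM (310.8 to 318.3) in Tomato+ cells, against 131.5 CPM (129.2 to 133.9) in Tomato- cells, 2.39-fold apart, with a log2 ratio of 1.197 and an SD of 0.39 between title numbers. The transcript was detected in 83.8% of Tomato+ cells, against 35.1% of Tomato- cells. In cells that had it, the median was 70 counts in Tomato+ cells, against 69 counts in Tomato- cells, so the groups differed in how many cells carried the transcript more than in its amount per carrying cell.

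Among Tomato- cells Slc18a2 followed the cell class. It was detected in 94 RGC-like cells (81.03% of the class), 18 of 72 unnamed cells, 3 of 56 neurogenic precursor-like cells (5.36%) and 12 progenitor-like cells (10.2%). The summed levels were 260.1 CPM, 113.7 CPM, 18.1 CPM and 23.9 CPM in that order, and 1 cell gave 74.3% of the counts of the neurogenic precursor-like class. Thinned cells kept the gap, with at least 1 count in 89.7% of RGC-like against 32.4% of progenitor-like cells. Slc18a2 was therefore carried by most RGC-like cells of both groups: 85% in Tomato+ cells and 81.03% in Tomato- cells.

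Within the RGC-like class the gap in Slc18a2 narrowed. Title numbers ran from 232.9 to 430.5 CPM in Tomato+ cells, with a median of 324.9 CPM, and from 117.8 to 331.1 CPM in Tomato- cells, with a median of 279.4 CPM. Only 5 of the 10 Tomato+ title numbers lay above all Tomato- ones. The pooled levels were 319.1 CPM in Tomato+ cells, against 260.1 CPM in Tomato- cells, and the log2 ratio of 0.28 was below its SD of 0.38 between title numbers. Its sign was the same in 33 of 34 alternatives, most of which left out 1 title number in turn. The ratio was -0.13 where RGC-like cells were taken by marker counts alone, and 0.63 with no cell left out. The marker counts gave 35 Tomato- cells, of which 25 were shared with the main RGC-like class.

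Htr1b, on chromosome 9 (81628291 to 81633828, minus strand), was the receptor of the set. Its level by title number ran from 13.5 to 62.2 CPM in Tomato+ cells, with a median of 19.7 CPM, and from 0.0957 to 19.96 CPM in Tomato- cells, with a median of 3.78 CPM. The groups overlapped, and 4 of the 10 Tomato+ title numbers lay above all Tomato- ones. Pooled levels were 28.2 CPM (27.1 to 29.4) in Tomato+ cells, against 8.08 CPM (7.51 to 8.67) in Tomato- cells, a log2 ratio of 1.08 with an SD of 0.55. Without title number 5, the highest of the Tomato+ ones, it was 0.89 and below the 2-fold limit. The receptor was detected in 16.8% of Tomato+ cells, against 4.14% of Tomato- cells. Its counts were unevenly spread, and 5 cells gave 29.2% of them in Tomato+ cells, against 71.1% in Tomato- cells.

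In RGC-like cells Htr1b was detected in 54 Tomato+ cells (16.9%) and 12 Tomato- cells (10.3%), beside 2 progenitor-like Tomato- cells (1.69%). Its level was 28.6 CPM in Tomato+ cells, against 14.3 CPM in Tomato- RGC-like cells, and its log2 ratio of 0.67 was within the SD of 0.76 between title numbers. With cells limited to 10% mitochondrial counts it was 1.10 and past the 2-fold limit. Title numbers ran from 13.8 to 67.5 CPM in Tomato+ cells, with a median of 19.8 CPM, and from 0 to 49.4 CPM in Tomato- cells, with a median of 7.63 CPM.

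Maoa, the oxidase with a preference for serotonin, lies on the X chromosome (16619698 to 16687818). It did not differ between the groups beyond their spread. Title numbers ran from 3.78 to 57.4 CPM in Tomato+ cells, with a median of 27.1 CPM, and from 4.66 to 51.98 CPM in Tomato- cells, with a median of 26.9 CPM. The pooled level was 27.1 CPM (25.98 to 28.2) in Tomato+ cells, against 27.8 CPM (26.8 to 28.9) in Tomato- cells, and the log2 ratio was -0.03 with an SD of 0.75. Its share of cells was 16.2% in Tomato+ cells, against 11.05% in Tomato- cells. Unlike that of Slc18a2, the detected share of Maoa was similar in the classes of Tomato- cells. It was 12.1% of RGC-like, 9.72% of unnamed, 8.93% of neurogenic precursor-like and 11.9% of progenitor-like cells. The summed levels were 24.9, 30.95, 40.8 and 24.1 CPM in that order. Within the progenitor-like class, Tomato- cells of cluster 5 stood at 17.1% and 33.4 CPM for Maoa. In RGC-like cells its level was 27.6 CPM in Tomato+ cells, against 24.9 CPM in Tomato- cells, a log2 ratio of 0.11. As a mean over title rows that ratio was 0.80, with Tomato+ higher in 29 of 38 rows. Over all kept cells the row mean was 0.03, with Tomato+ higher in 22 rows and lower in 17. The RGC-like class held fewer Tomato- than Tomato+ cells. The part of cell number in the row values of this class was not tested, and no difference in Maoa is drawn from them.

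**Figure D1:**
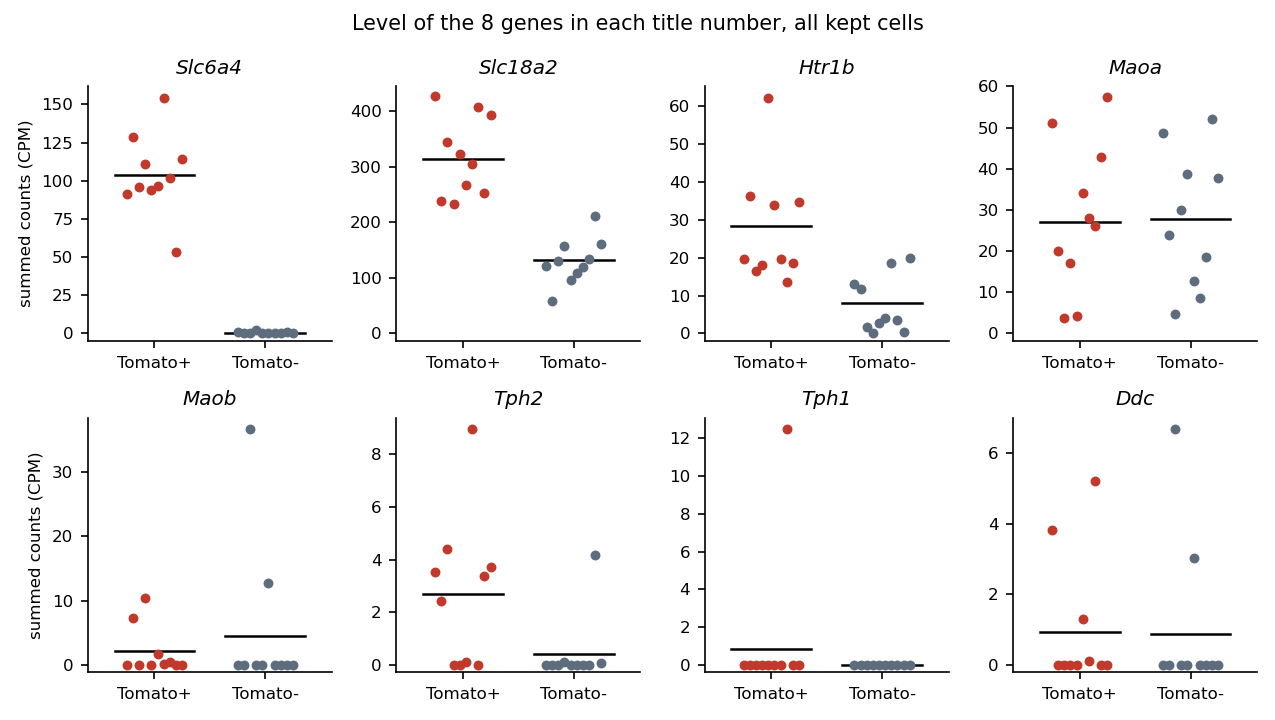
Level of each of the 8 genes in summed counts (CPM) in the 10 Tomato+ title numbers (red) and the 10 Tomato- title numbers (grey), over all kept cells; each point is 1 title number, the line is the pooled level of the group, and each panel has its own scale. The groups do not overlap for Slc6a4 and Slc18a2, overlap in part for Htr1b and overlap fully for Maoa, Maob, Ddc and Tph1 lie at 0 in most title numbers, and Tph2 has counts in 7 Tomato+ and 3 Tomato- title numbers.

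By the 2-fold limit, 3 of the 4 compared genes (Slc6a4, Slc18a2 and Htr1b) were higher in Tomato+ over all kept cells and 0 were lower. The background was 3.3% of 9094 compared genes higher and 7.03% lower. In RGC-like cells 1 of the 4, Slc6a4, was at least 2-fold higher and 0 were lower, against a background of 0.705% of 8654 genes higher and 0.994% lower. Title numbers did not overlap for 2 of the 4 genes over all kept cells (background 1.88% of genes with Tomato+ above and 3.42% below) and for 1 of the 4 in RGC-like cells (background 0.0462% above and 0.0116% below). Slc6a4 is among the genes higher and without overlap in both sets of cells. As Cre follows Slc6a4 in this line, its part in these counts goes with the sort and is no result about the set. In RGC-like cells no other compared gene was called, and the title numbers of the others overlapped.

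Maob, the neighbour of Maoa, is read from the other strand of the X chromosome (16709282 to 16817366), and the ends of the 2 genes face each other across 21464 bases. It was detected in 5 Tomato+ cells (1.53%) and 3 Tomato- cells (0.829%), at 2.13 CPM in Tomato+ cells, against 4.45 CPM in Tomato- cells. The 5 Tomato+ cells held 68, 14, 15, 12 and 66 counts, all RGC-like and all with Slc18a2 detected. Of all kept Tomato+ cells 97.9% were RGC-like, and an independent spread would give 4.19 of the 5 with Slc18a2. Of the 416 Tomato- counts, 1 cell of title number 13 in the unnamed cluster gave 60.3%, and a progenitor-like cell of the same title number held 52. The other Tomato- cell with Maob was of title number 16 and also lay in the unnamed cluster. In RGC-like Tomato- cells the gene had 2 counts in all.

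The tryptophan hydroxylases were detected in few cells. Tph2, the hydroxylase of serotonergic neurons, was detected in 8 Tomato+ cells and 1 Tomato- cell, at 2.70 CPM in Tomato+ cells, against 0.428 CPM in Tomato- cells. The Tomato+ cells held 6, 42, 15, 24, 34, 55, 27 and 21 counts and came from 6 title numbers. All 8 were RGC-like, as were 97.9% of all kept Tomato+ cells. The Tomato- cell held 37 counts, was RGC-like and also had Slc18a2 detected. Tph2 was below the 10 CPM limit, and its log2 ratio of 0.28 lay close to its SD of 0.24 between title numbers.

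Tph1, the hydroxylase of peripheral tissues, had 74 counts, all in 1 Tomato+ cell, and was found in 0 Tomato- cells, which by the limit of 3 cells allows a share of cells with counts of up to 0.829%. That cell, of title number 8, had 148929 counts in all and 31 counts of Ddc, 3 of Maob and 0 of Slc6a4, Slc18a2, Maoa, Tph2 and Htr1b. Although it fell in a progenitor-like cluster, 5 of its 7 mast cell markers were at 5 or more counts: Cma1 at 1813, Cpa3 at 624, Kit at 93, Hdc at 43 and Mcpt4 at 8 counts. Tpsb2 and Ms4a2 were at 0. Also at 5 or more counts were 4 of 12 progenitor markers, summing to 1455 counts with Mki67 at 836, and 3 of 8 microglia or macrophage markers, summing to 488 counts. Mast cells are known to use Tph1. The 12 RGC markers summed to 12 counts in that cell. In RGC-like cells Tph1 had 0 counts in either group.

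Ddc, which turns the product of both hydroxylases into serotonin, was detected in 3 Tomato+ and 3 Tomato- cells, at 0.939 CPM in Tomato+ cells, against 0.877 CPM in Tomato- cells. Of the 3 Tomato+ cells, 1 was the cell with Tph1, and the other two held 39 and 10 counts and were RGC-like. The Tomato- cells held 7, 25 and 47 counts. No cell of either group had both Tph2 and Ddc at the detection limit, whereas 1 Tomato+ cell had both Tph1 and Ddc.

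Slc6a4 and Slc18a2 were next compared cell by cell in the Tomato+ group. Both were detected in 34.6% of cells, Slc18a2 without Slc6a4 in 49.2%, Slc6a4 without Slc18a2 in 2.14% (7 cells) and neither in 14.1% (46 cells). In Tomato- cells both were detected in 1 cell, Slc18a2 alone in 34.8% of cells, Slc6a4 alone in 0 cells and neither in 64.9%. Uptake without the vesicular carrier was the least frequent of these states in Tomato+ cells. That rank would also be met without any link, since Slc6a4 was detected in 36.7% and Slc18a2 in 83.8% of these cells.

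**Figure D2:**
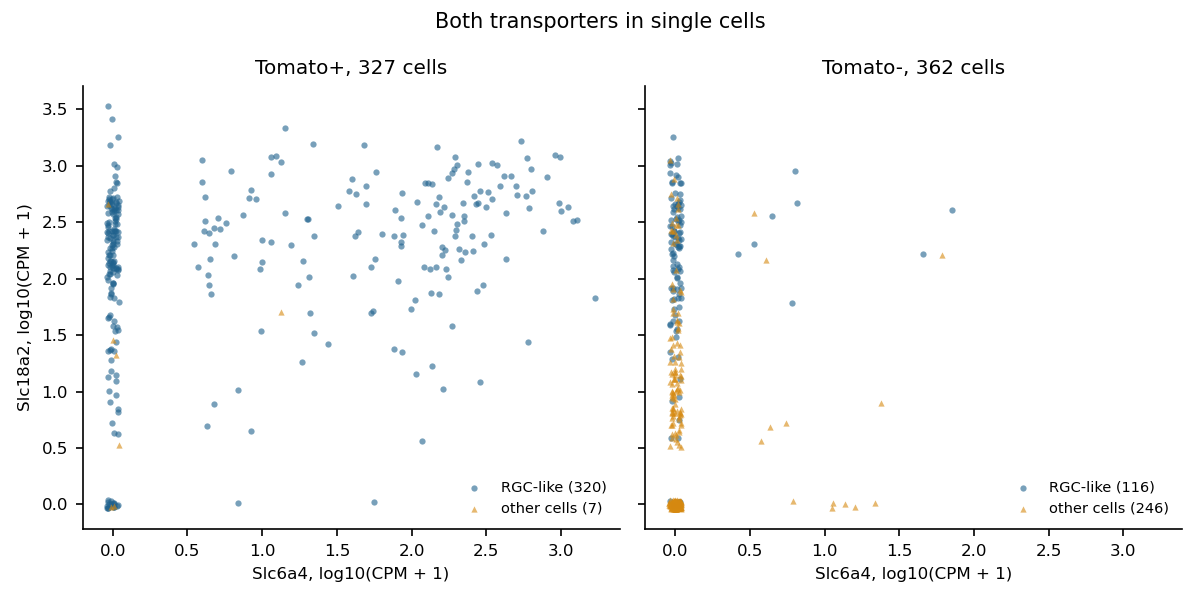
Slc6a4 (horizontal) and Slc18a2 (vertical) in single cells as log10(CPM + 1), Tomato+ left and Tomato- right; blue circles are RGC-like cells and orange triangles other cells, with a small horizontal and vertical scatter added so that cells at 0 can be seen. Cells with high Slc6a4 in the Tomato+ panel mostly also have Slc18a2, while many cells with Slc18a2 in either panel have no Slc6a4 count.

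Slc18a2 was detected in 94.2% (88.4% to 97.6%) of the 120 Tomato+ cells with Slc6a4 and in 77.8% (71.5% to 83.2%) of those without it, a difference of 16.4 percentage points. It was higher with Slc6a4 in 8 of 10 title numbers, where the difference ran from -8.08 to 37.5 points. Read the other way, Slc6a4 was detected in 41.2% of the cells with Slc18a2 and in 13.2% of the 53 cells without it. Cells with Slc6a4 were also deeper, with median totals of 290092 counts against 266839 counts without it, and most genes were found more often in them. Over 7846 genes the median difference was 5.77 points, and 25.6% of them were at least 10 points higher and 0.178% at least 10 points lower with Slc6a4. In thinned cells Slc18a2 was present in 96.4% of cells with and 87.3% of cells without Slc6a4. That difference of 9.09 points compares with a median of 0.33 points over 8995 genes, of which 3.11% were at least 10 points higher and 2.28% at least 10 points lower.

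The amount of Slc18a2 also differed with the Slc6a4 count. In Tomato+ RGC-like cells its level was 424 CPM where Slc6a4 had 5 or more counts (37.2% of 320 cells), 356.7 CPM where it had 1 to 4 (46 cells) and 210.2 CPM where it had 0. Median Slc18a2 counts per cell were 93, 49.5 and 35 in the same order. The log2 ratio of cells with over cells at 0 counts of Slc6a4 was 0.98 with an SD of 0.43, and the sign was positive in 9 of 10 title numbers, from -0.05 to 1.47. It stayed just under the 2-fold limit, which 0.774% of 8528 genes passed upwards and 0.668% downwards.

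Htr1b was detected in 22.5% of Tomato+ cells with and 13.5% of those without Slc6a4, a difference of 8.97 points that was positive in 7 of 10 title numbers. In cluster 1 it was found in 6 of 11 cells with and 2 of 41 cells without Slc6a4, and without that cluster, a choice made after seeing the data, the difference was 3.603 points. It also depended on the limit: at 1 or more counts the shares were 25.9% with and 22.98% without Slc6a4, and in thinned cells 22.6% with and 19.7% without. The Htr1b level was 32.5 CPM in RGC-like cells with Slc6a4, 7.63 CPM in those with 1 to 4 counts and 30.9 CPM in those at 0, so it showed no order. Its log2 ratio of 0.05 was far within the SD of 1.30. Maoa was detected in 13.3% of cells with and 17.9% of cells without Slc6a4, a difference of -4.54 points that was negative in 4 and positive in 5 title numbers. Thinned cells gave 15.3% with and 24.2% without. The Maoa level was 22.5 CPM with Slc6a4 and 30.4 CPM at 0 counts of it, a log2 ratio of -0.31 within its SD of 0.94.

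The rare genes were too few to order. Of the 8 Tomato+ cells with Tph2, 6 had Slc6a4 and all 8 had Slc18a2, where an independent spread would give 2.94 and 6.70. Tph2 was thus found in 5.00% of cells with and 0.966% of cells without Slc6a4, and the exact intervals of 1.86% to 10.6% and 0.117% to 3.45% overlapped. Maob was detected with Slc6a4 in 3 of its 5 cells and Ddc in 1 of its 3.

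**Figure D3:**
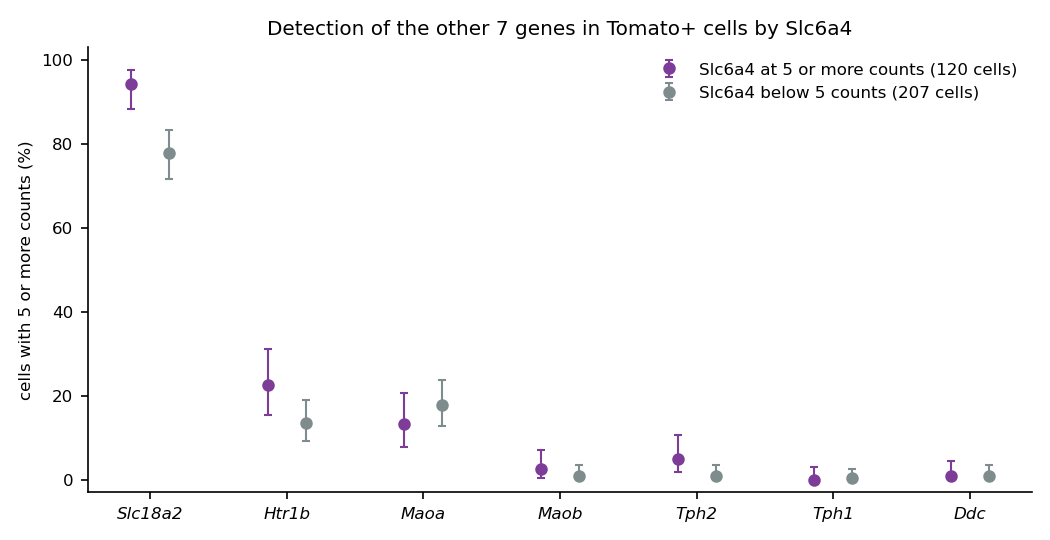
Share of Tomato+ cells with 5 or more counts of each of the other 7 genes, in 120 cells with Slc6a4 at 5 or more counts (purple) and in the cells below 5 counts (grey), with exact 95% intervals for counting error. Slc18a2 stands at 94.2% with and 77.8% without Slc6a4, and the intervals of the other 6 genes overlap.

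Counting over Slc6a4, Slc18a2, Maoa and Htr1b together, 4 Tomato+ cells had all 4 genes, 37 had 3 (11.3%), 37.6% had 2, 39.4% had 1 and 34 cells (10.4%) had none. In the Tomato- group 0 cells had 4 or 3 genes, 25 had 2 (6.91%), 36.7% had 1 and 56.4% had none. Uptake, storage and the receptor were detected together in 27 Tomato+ cells (8.26%), and uptake, storage and Maoa in 15 (4.59%). Both combinations were found in 0 Tomato- cells. They need Slc6a4, which was detected in 1 Tomato- cell, so that count was nearly fixed by the sort and no contrast is drawn from it. The same holds for the count of cells with all 4 genes.

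Within the RGC-like class the transporters differed between clusters. Tomato+ cells lay mostly in clusters 0, 3 (73 cells) and 4 (60 cells), and Tomato- RGC-like cells in clusters 6 (39 cells), 1 (31 cells) and 0 (30 cells), so the class had a different make-up in the 2 groups. Slc6a4 in Tomato+ cells was at 240.4 CPM in cluster 3 and 143.4 CPM in cluster 6, against 67.4 CPM in cluster 0, 61.5 CPM in cluster 4 and 44.2 CPM in cluster 1. It led cluster 3 although it was left out of the clustering, beside Ephb1, a guidance receptor of axons that stay on their own side of the brain, and Zic5, a zinc finger gene. Cluster 0 was led by genes that included Eomes and Pnoc, cluster 4 by Chl1 and Kcnq3, and cluster 6 by Cntn2 and Igfbp5, given here as definitions only.

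Slc18a2 in Tomato+ cells was also highest in cluster 3, at 557.6 CPM, against 320.9 CPM in cluster 6, 315.7 CPM in cluster 1, 266.2 CPM in cluster 4 and 234.1 CPM in cluster 0. Cluster 3 held only 2 Tomato- cells, so its level has no usable Tomato- counterpart. In the other RGC-like clusters, set beside Tomato- cells of the same cluster, the order of Slc18a2 was mixed. The level was 234.1 CPM in Tomato+ cells, against 188.4 CPM in Tomato- cells of cluster 0. It was 266.2 CPM in Tomato+ cells, against 94.03 CPM in Tomato- cells of cluster 4. In cluster 6 the gap was small, with 320.9 CPM in Tomato+ cells, against 298.3 CPM in Tomato- cells. In cluster 1 it was lower in Tomato+ cells, at 315.7 CPM, than in Tomato- cells, at 506.1 CPM. Cluster 1 was the shallowest, with a median total of 150851 counts, and 5 of its 31 Tomato- cells gave 51.3% of their Slc18a2 counts. Its detected shares were 75% in Tomato+ cells, against 70.97% in Tomato- cells. Without cluster 1, a choice made after seeing the data, the Slc18a2 ratio of the RGC-like class was 0.55.

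Co-detection of the transporters varied between clusters too. Slc18a2 was detected in 94.4% of cells with and 78.9% of cells without Slc6a4 in cluster 0, in 100% with and 68.3% without in cluster 1, and in 100% with and 76.3% without in cluster 3. In cluster 4 the shares were 86.96% with and 94.6% without, and in cluster 6 they were 85.7% in both. Htr1b in Tomato+ cells was at 42.2 CPM in cluster 1, 38.1 CPM in cluster 4, 26.6 CPM in cluster 0, 24.5 CPM in cluster 3 and 14.4 CPM in cluster 6. In cluster 6 it was detected in 1 Tomato+ cell, which gave 95.1% of its counts. Htr1b was therefore not highest in the cluster that was highest in both transporters. Maoa in Tomato+ cells lay between 19.2 CPM (cluster 4) and 32.6 CPM (cluster 6).

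**Figure D4:**
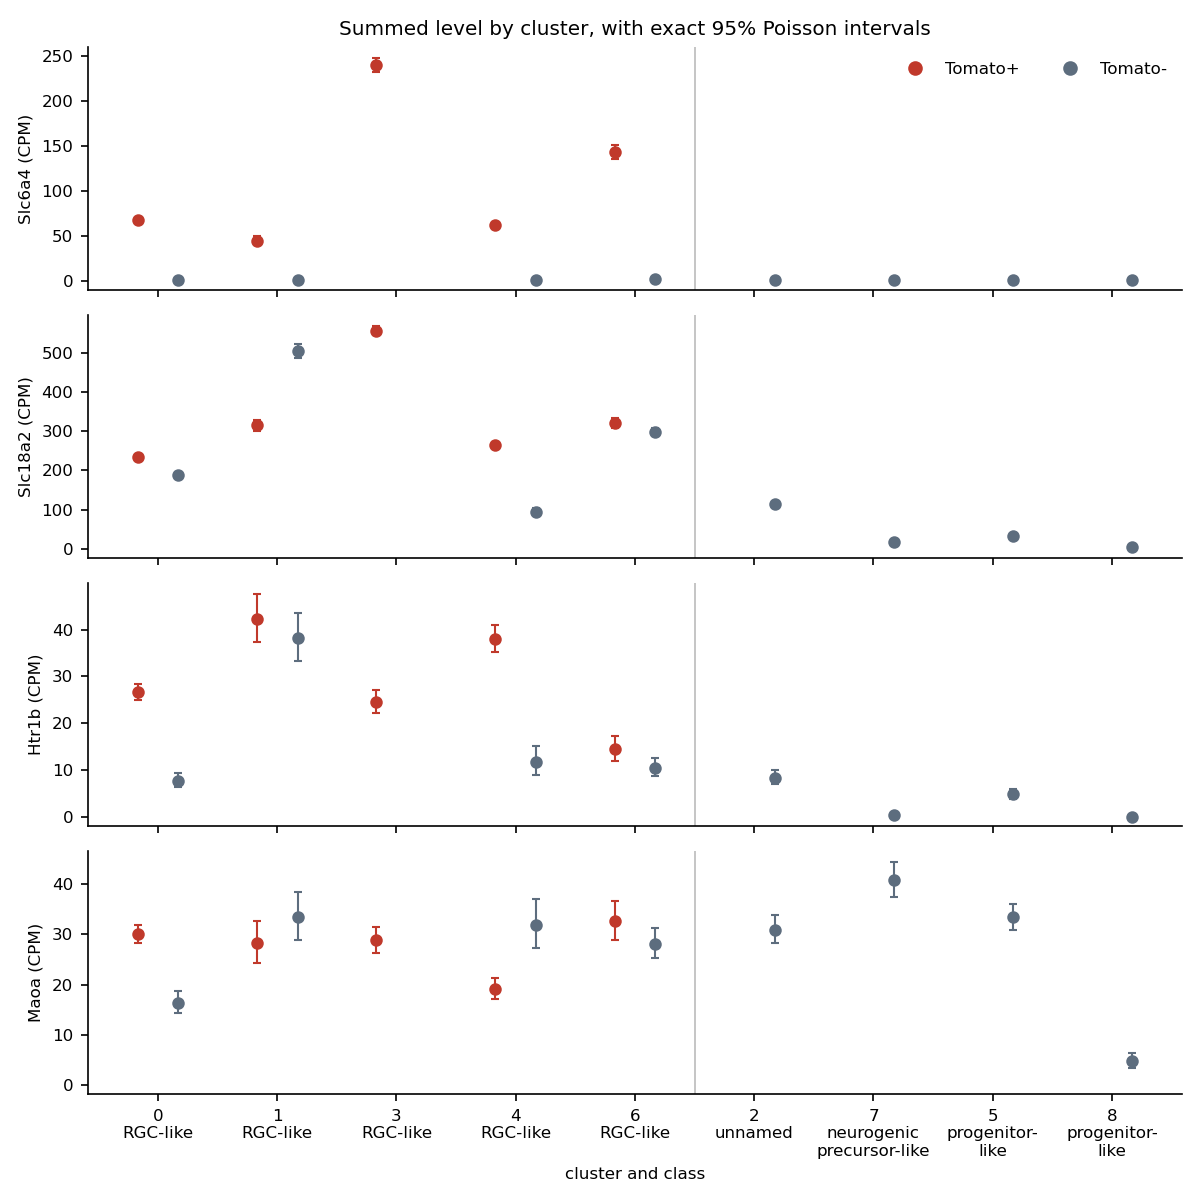
Summed level (CPM) of Slc6a4, Slc18a2, Htr1b and Maoa in each cluster, Tomato+ (red) left of Tomato- (grey), with exact 95% Poisson intervals; clusters left of the vertical line are RGC-like, and a cluster and group with fewer than 10 cells is not drawn. Slc6a4 and Slc18a2 in Tomato+ cells are highest in cluster 3, Slc6a4 lies near 0 in every Tomato- cluster, and Maoa has no such order.

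Over the 320 Tomato+ RGC-like cells, the genes whose CPM ordered cells most like Slc6a4 were Gal (Spearman rho 0.43), Zic5 (0.42), Rdh10 (0.35), Crabp1 (0.33) and Grb10 (0.32), out of 7438 candidates. Slc18a2 was the next, at 0.31, whereas Htr1b was at 0.00 and Maoa at -0.11. For Slc18a2 the closest were Zic5 (0.37), Ephb1 (0.36), Gal (0.31), Slc6a4 (0.31) and Igfbpl1 (0.28). Zic5 and Gal, a neuropeptide gene, were thus common to both. For Htr1b the highest values were weak, among them Chchd4 (0.25), Arid3a (0.22), Edem3 (0.21) and Coq6 (0.21). Cells share their library preparation and differ in depth, so these are descriptions. Thinned counts gave 4 of the same 5 genes for Slc6a4, 4 for Slc18a2 and 3 for Htr1b.

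The other genes of the pathway, in 7 lists, were mostly low. Of 14 serotonin receptors, Htr1b was the 1 that averaged 10 CPM. Among the others, Htr5b, named after its values were seen, had 5.55 CPM in Tomato+ cells, against 0.0321 CPM in Tomato- cells. Of 7 other monoamine carriers, 1 was compared and 0 were called: Slc29a4, a low-affinity membrane transporter of monoamines, had 134.6 CPM in Tomato+ cells, against 69.6 CPM in Tomato- cells (log2 ratio 0.86). In RGC-like cells it had 137.3 CPM in Tomato+ cells, against 141.9 CPM in Tomato- cells. The other vesicular carrier, Slc18a1, was at 1.89 CPM in Tomato+ cells, against 0.588 CPM in Tomato- cells. The noradrenaline and dopamine transporters Slc6a2 and Slc6a3, named after their values were seen, had 0 counts in both groups.

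Of 10 genes for amine synthesis and its biopterin cofactor, 3 were compared and 0 were called. Pcbd1, which recycles the cofactor, had 115.8 CPM in Tomato+ cells, against 74.8 CPM in Tomato- cells (log2 ratio 0.57), and Qdpr, which reduces it, had 97.3 CPM in Tomato+ cells, against 75.6 CPM in Tomato- cells (log2 ratio 0.33). Pts, which makes the cofactor, was the third, at 42.04 CPM in Tomato+ cells, against 53.4 CPM in Tomato- cells (log2 ratio -0.28). In RGC-like cells the log2 ratios were -0.05 for Pcbd1, 0.14 for Qdpr and -0.08 for Pts. Of 12 breakdown and melatonin genes, 4 were compared, 0 were higher and 1 fell. This was Aldh1a1, an aldehyde dehydrogenase that also makes retinoic acid, at 7.06 CPM in Tomato+ cells, against 60.4 CPM in Tomato- cells (log2 ratio -2.05). It was at 5.85 CPM in Tomato+ cells, against 14.4 CPM in Tomato- RGC-like cells (log2 ratio -0.62). Of all genes compared over all kept cells, 7.03% were lower. The list median was -0.60 over all kept cells and -0.38 in RGC-like cells, beside -0.07 and -0.03 over all compared genes.

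Of 10 transcription factors known from serotonergic neurons, 1 was compared, and it fell. Over all compared genes, 7.03% were lower over all kept cells and 0.994% in RGC-like cells. Insm1, which is also on the neurogenic precursor marker list, had 8.12 CPM in Tomato+ cells, against 55.96 CPM in Tomato- cells (log2 ratio -1.86), and 7.38 CPM in Tomato+ cells, against 27.01 CPM in Tomato- RGC-like cells (log2 ratio -1.09). Fev and Lmx1b, which define serotonergic neurons of the brain stem and are named after their values were seen, had 0 counts in both groups.

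Of 12 genes for signalling downstream of Htr1b, 9 were compared and 3 rose over all kept cells, with 0 lower. Over all genes compared there, 3.3% were higher and 7.03% lower, and in RGC-like cells 0.705% were higher and 0.994% lower. The G protein subunit genes Gnai1 and Gnao1 had log2 ratios of 1.33 and 1.18: Gnai1 was at 58.8 CPM in Tomato+ cells, against 17.4 CPM in Tomato- cells, and Gnao1 at 391.8 CPM in Tomato+ cells, against 167.002 CPM in Tomato- cells. S100a10 (p11), known to bind the receptor, was at 1125 CPM in Tomato+ cells, against 512 CPM in Tomato- cells (log2 ratio 1.12). In RGC-like cells 0 of the 9 were called, and the 3 ratios were 0.83, 0.23 and 0.05. The list median was 0.43 over all kept cells and 0.23 in RGC-like cells, beside -0.07 and -0.03 over all compared genes.

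Of 11 vesicle and transporter partners, 7 were compared and 1 rose in both sets of cells. Over all compared genes, 3.3% were higher over all kept cells and 0.705% in RGC-like cells. Flot1, a lipid raft protein, was at 102.5 CPM in Tomato+ cells, against 33.96 CPM in Tomato- cells (log2 ratio 1.36). In RGC-like cells it was at 100.9 CPM in Tomato+ cells, against 39.3 CPM in Tomato- cells (log2 ratio 1.17, SD 0.69). The vesicular glutamate transporter Slc17a6, named after its values were seen and also an RGC marker, was at 118.3 CPM in Tomato+ cells, against 181.9 CPM in Tomato- RGC-like cells (log2 ratio -0.58, SD 0.44). Over all kept cells it was at 116.6 CPM in Tomato+ cells, against 81.8 CPM in Tomato- cells (log2 ratio 0.46). The list median was 0.59 over all kept cells and 0.18 in RGC-like cells, beside -0.07 and -0.03 over all compared genes. All ratios are relative to the group totals: over all kept cells the TMM and median-of-ratios factors of Tomato+ over Tomato- were -0.12 and -0.14 on the log2 scale, and the Slc18a2 ratio was 1.31 with the first and 1.33 with the second.

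**Figure D5:**
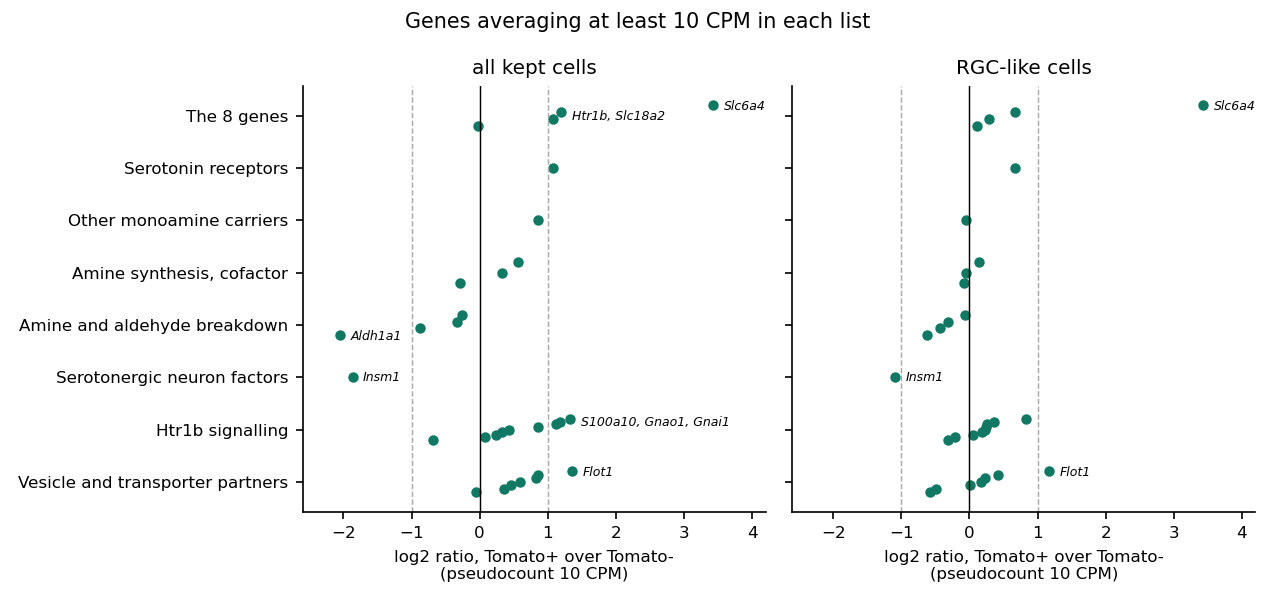
Log2 ratio of Tomato+ over Tomato- (pseudocount 10 CPM) for every gene averaging at least 10 CPM in each list, over all kept cells (left) and RGC-like cells (right); dashed lines mark the 2-fold limits and genes past them are named. Over all kept cells Slc6a4, Slc18a2, Htr1b, Gnai1, Gnao1, S100a10 and Flot1 lie past the upper limit, and in RGC-like cells only Slc6a4 and Flot1 do.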

How the data were processed

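Single-cell RNA was measured in 400 Tomato+ and 400 Tomato- cells, grouped by the genotype label. The authors deposited a table of counts per gene and cell, whole numbers without normalisation; the column headers end in umi while the labels' protocols name SmartSeq2, so whether they are reads or unique molecules could not be settled. The aligner and counting tool are not given in the sources used here. Per the submitters' processing notes, Seurat 2.3, R 3.4.4 and mm10 were used; per the labels' protocols, libraries were SmartSeq2, and the series title names C1. The table had 49585 rows, 93 of them repeats of a symbol, and 801 columns, of which 1 fits the title of no cell here and was left unused.

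Kept cells held at most 20% mitochondrial counts (73 Tomato+ and 38 Tomato- cells left out), with 86301166 counts over Tomato+ cells and 93484125 over Tomato- cells. Counts were summed and divided by the group total (CPM) with exact Poisson intervals, and shares have Clopper-Pearson intervals (Python 3.11.15, scipy 1.17.1, pandas 2.3.3); amplified molecules may be counted more than once, so all intervals cover counting error only. A log2 ratio sets Tomato+ over Tomato- after 10 CPM were added to each, and their SD combines the spread of the log2 level over the title numbers of both groups. A gene was compared where it averaged 10 CPM over the groups and called at 2-fold. Thinning drew 94783 counts per cell, the 10th percentile, and left out 33 shallower Tomato+ and 36 Tomato- cells.

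Clusters came from scanpy 1.11.5 (leidenalg 0.10.2, igraph 0.11.9; 2000 variable genes, 20 components, 15 neighbours, resolution 1), which gave 9 clusters; the 8 genes, the pathway lists, and mitochondrial, ribosomal and haemoglobin genes were left out. No doublet caller was run. TMM (edgeR 4.0.16) and median-of-ratios (DESeq2 1.42.0, R 4.3.3) were alternatives of scaling only. Promoter windows were matched by symbol for 7 of the 8 genes, Maob having none. Scripts were tested on simulated data. The genes and lists were chosen with earlier results of these data known. Named are the 8 genes, list genes compared and called, otherwise the 2 of a list with the highest CPM, and the 5 closest genes by rank correlation; exceptions are marked in the text. Of the genes closest to Htr1b, 1 is not reported here.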

Additional observations from a re-analysis of the deposited data

Results flagged for a closer look

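Of 16 sets of 10 title numbers (8 genes in each group), 7 had a highest value set far apart from the others for the size of the set, and chance flags about 1 in 20 where values are spread evenly. In 4 of the 7 sets (Tph1 in Tomato+, and Maob, Ddc and Tph2 in Tomato-) at least 7 of 10 title numbers were at 0, so this share does not hold for them. Among Tomato+ title numbers these were Tph1 in number 8 at 12.47 CPM, all from the cell with mast cell markers, Tph2 in number 7 at 8.952 CPM, and Htr1b in number 5 at 62.16 CPM. Among Tomato- title numbers they were Slc6a4 in number 14 at 2.104 CPM, Maob in number 13 at 36.65 CPM, Ddc in number 13 at 6.686 CPM, and Tph2 in number 19 at 4.185 CPM. The Maob and Ddc values of number 13 come from few cells, of which 1 progenitor-like cell held 52 counts of Maob and 47 counts of Ddc.

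Cells left out for mitochondrial counts carried both transporters as well. In the 73 Tomato+ cells left out, Slc6a4 was at 140.7 CPM and Slc18a2 at 434.9 CPM, against 1.36 CPM and 156.4 CPM in the 38 Tomato- cells left out. Htr1b was at 29.7 CPM in these Tomato+ cells, against 5.96 CPM in these Tomato- cells, and Maoa at 2.08 CPM in these Tomato+ cells, against 0.271 CPM in these Tomato- cells. Maob, Ddc, Tph1 and Tph2 had 0 counts in the cells left out of either group. Their median totals were 94705 counts for Tomato+ cells, against 88370 counts for Tomato- cells.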

How the results depend on the processing

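Slc6a4 was past the 2-fold limit in 30 of 30 alternatives over all kept cells and 34 of 34 in RGC-like cells, Slc18a2 over all kept cells in 30 of 30 and in RGC-like cells in 0 of 34, and Htr1b in 29 of 30 over all kept cells and 1 of 34 in RGC-like cells. With a pseudocount of 1 CPM the log2 ratios over all kept cells were 6.08 for Slc6a4, 0.89 for Tph1, 1.37 for Tph2 and 1.69 for Htr1b, and in RGC-like cells 5.95 for Slc6a4, 1.58 for Maob, 0.42 for Ddc and 0.89 for Tph2. With RGC-like cells taken by marker counts, Slc6a4 was at 2.99 and Slc18a2 at -0.13, and Maoa at -0.94; the cause was not tested. Thinned counts kept 3 of the 5 genes closest to Htr1b. Leaving out each title number in turn, ratios over all kept cells ran from 3.36 to 3.50 for Slc6a4, 1.12 to 1.29 for Slc18a2, -0.16 to 0.09 for Maoa and 0.89 (without number 5) to 1.22 for Htr1b, and in RGC-like cells from 3.36 to 3.51, 0.22 to 0.34, -0.02 to 0.55 and 0.47 to 1.00. The difference in Slc18a2 share with Slc6a4 ran from 14.5 to 19.3 points. In all, 629 values stayed within their limit and 13 moved past it. Most of these values, and most of the 30 and 34 alternatives above, came from leaving out 1 title number in turn. Such a value can hardly move past the spread between title numbers, and Tph1 in RGC-like cells had no counts to move. The tally therefore says little about how firm the results are. The limit was the spread between title numbers for ratios and share differences, and a fixed fold for counts of pathway genes and of shared closest genes. Title rows are shared by both groups but not stated to pair cells; with the row as a replicate block, added after seeing the data, the mean log2 ratios over 40 rows of all kept cells were 3.02 for Slc6a4, 1.41 for Slc18a2, 0.03 for Maoa and 1.04 for Htr1b, and over 38 rows of RGC-like cells 2.98, 0.58, 0.80 and 0.87, so none of these 4 genes changed its side of the 2-fold limit. The RGC-like class held fewer Tomato- than Tomato+ cells. The part of cell number in the row values of this class was not tested. At a median depth of 243410 to 271789 counts, the detection of Maob, Ddc, Tph1 and Tph2 rests on 0 to 8 cells a group, and no difference between groups is drawn from them.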
